A study of Bos taurus and Sus scrofa with 10 samples.

Results

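Maternal mRNA storage proteins are RNA-binding proteins that hold messenger RNA of the oocyte in a stable and mostly untranslated form. The genes described here were listed by name as 10 symbols: ZAR1, ZAR1L, YBX2, YBX1, CPEB1, PATL2, LSM14B, DAZL, DDX6 and IGF2BP3. A gene was taken up where a row of the species' expression table carried exactly that symbol. This gave 8 of 22845 rows in cow and 7 of 21867 rows in pig. ZAR1, ZAR1L, YBX2, DDX6 and IGF2BP3 make up the 5 genes with a row in both species. CPEB1 and LSM14B were analysed in pig alone, and YBX1, PATL2 and DAZL in cow alone.

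RNA sequencing of total RNA covered 5 stages of cow and of pig: oocytes, embryos of 2-4 cells, embryos of 8-16 cells, morulae and blastocysts. Every stage of a species was represented by 1 library, 10 in all, so no difference below has a replicate check and no p-value is given. The labels name species and stage only, without breed, treatment, origin of the embryos or the number pooled. Levels are reads per 1000000 reads of the library (RPM), which compare a gene between stages of a species and do not compare genes of different length. Read totals ranged from 3002751 in the pig morula library to 14182046 in the cow blastocyst library. A count of 0 reads allows up to 3 reads, which was between 0.212 and 0.999 RPM depending on the library. Intervals are 95% Wilson intervals for a level and exact (Clopper-Pearson) 95% intervals for a fold, and both cover counting error only.

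A growing oocyte makes far more mRNA than it translates, and transcription stops before meiosis resumes. Until the embryonic genome is switched on, stored transcripts supply the new proteins, and they are activated mainly by lengthening of the poly(A) tail and later degraded. In cattle the main wave of genome activation is placed around the 8-16 cell stage, while in pig it is placed around the 4-cell stage. ZAR1 and ZAR1L, YBX2, CPEB1, PATL2, LSM14B and DAZL are known chiefly from germ cells, whereas YBX1 and DDX6 act in most cell types. In bulk libraries of this kind, less RNA per cell and fewer cells carrying a transcript cannot be told apart.

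The stage labels were checked with marker lists. All 11 oocyte markers with a row were at 1 RPM or more in both oocyte libraries. Their summed level in the cow 2-4 cell, 8-16 cell, morula and blastocyst libraries was 91.2%, 12.9%, 2.04% and 0.00455% of the oocyte sum, and in pig 55.6%, 49.98%, 3.29% and 0.293%. The blastocyst markers summed to 157 RPM in the cow oocyte library against 3653 RPM in the blastocyst library. In pig these sums were 35.2 and 8654 RPM. KRT8 and KRT18 were the highest of these markers in both blastocyst libraries, at 1490 and 1021 RPM in cow and 3629 and 2681 RPM in pig. Single markers did not all follow the sums. ATP1B1 was higher in the oocyte than in the blastocyst library (cow 105 against 5.99 RPM, pig 14.2 against 6.17 RPM). Cow NANOG and TFAP2C were highest at the 8-16 cell stage, and NANOG and SOX17 had 0 reads in the pig blastocyst. Of the markers of cumulus and granulosa cells, which surround the oocyte, 10 of 19 reached 1 RPM in the cow oocyte library and 6 of 15 in the pig one. Over the stages the cow sums lay between 121 and 1037 RPM and the pig sums between 147 and 2163 RPM, with the highest sum in the blastocyst library of both species. In the cow oocyte library STAR (157 RPM), HAS2 (141 RPM), VCAN (116 RPM), PTGS2 (91.3 RPM) and FSHR (37.3 RPM) were the highest of these markers, and LHCGR, CYP11A1, INHA, AMH, AMHR2, FOXL2 and FST had 0 reads. In the pig oocyte library VCAN (101 RPM), STAR (43.2 RPM) and FSHR (11.3 RPM) were the highest, and CYP11A1, INHA, INHBA, TNFAIP6, PTGS2 and NR5A2 had 0 reads. Sperm markers summed to at most 21.6 RPM in any library. The part of other cells in the levels below was not tested.

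In both species most of these transcripts were present in the oocyte and far lower or undetected in the blastocyst, but the stage at which they dropped differed. Changes were computed as differences of log2(RPM + 1), which understate the change of low genes, and a gene was called changed at a difference of 2 or more, a 4-fold change on that scale. From oocyte to blastocyst 5 of 8 genes fell in cow (ZAR1, ZAR1L, YBX2, PATL2 and DAZL), where 18.4% of all 12738 genes compared were called lower. In pig 5 of 7 fell (ZAR1, ZAR1L, YBX2, CPEB1 and IGF2BP3), where 19.2% of 12512 genes were called lower. The median difference was -4.57 over the 8 cow genes and -5.24 over the 7 pig genes, beside 0.18 and 0.43 over all genes compared. None of these genes was called higher in either species.

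**Figure D1:**
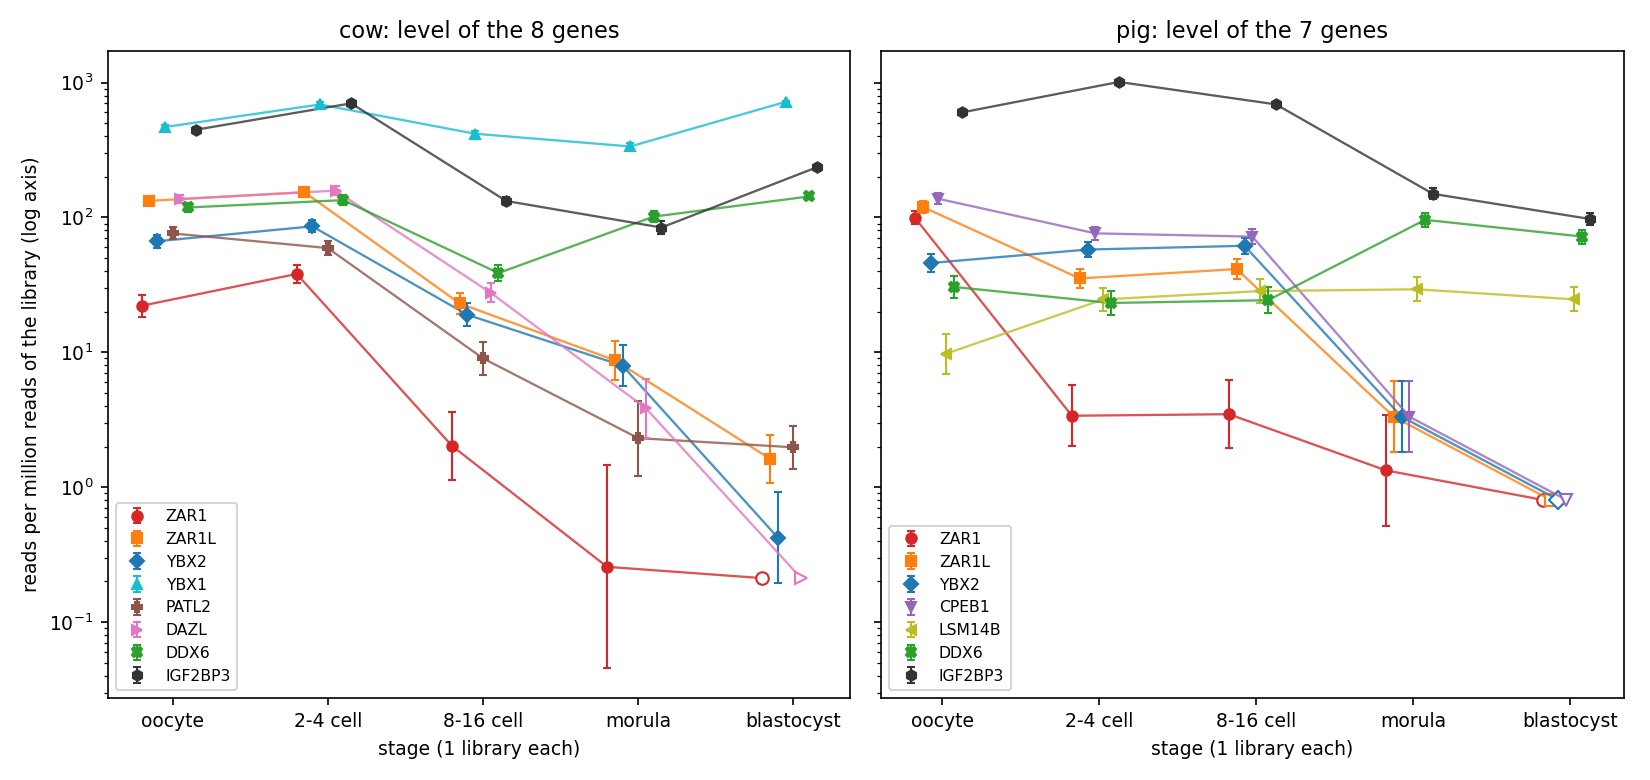
Level in RPM (log axis) of the 8 cow genes (left) and the 7 pig genes (right) in the 5 stage libraries; bars are 95% Wilson intervals, and open symbols mark 0 reads, drawn at the level of 3 reads. Levels of ZAR1L, YBX2, PATL2, DAZL and ZAR1 drop after the 2-4 cell stage in cow, while in pig ZAR1 drops directly after the oocyte and ZAR1L, YBX2 and CPEB1 mainly after the 8-16 cell stage.

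The single steps placed the fall. From the cow oocyte to the 2-4 cell embryo 0 of 8 genes were called changed, beside 0.374% of all genes compared. A higher level at the later stage was seen in 7 of 8. The median difference was 0.29 over the 8 genes and 0.27 over all genes compared, so this rise was not particular to the listed genes. For ZAR1L, DAZL and DDX6 the sign of the difference turned when libraries were scaled to their median gene. Between 2-4 and 8-16 cells 6 of 8 fell, beside 14.6% of all genes: ZAR1, ZAR1L, YBX2, PATL2, DAZL and IGF2BP3. From there to the cow morula only DAZL was called lower, beside 5.15% of all genes, and from the morula to the blastocyst YBX2 and DAZL were, 2 of 7 genes compared, beside 11.5%. ZAR1 was below the minimum of 1 RPM in both libraries of that last step. By the 8-16 cell stage 4 of the 8 cow genes were below 25% of their oocyte level, and by the morula 6 were. In the blastocyst 5 were, with IGF2BP3 at 52.6%. The share of all genes below 25% was not computed, so these counts have no background.

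In pig 1 of 7 genes fell between the oocyte and the 2-4 cell stage, beside 2.17% of all genes, and this was ZAR1. The next step, to the 8-16 cell stage, changed 0 of 7, beside 4.87% of all genes in either direction. Into the morula 4 of 7 fell, beside 11.3%: ZAR1L, YBX2, CPEB1 and IGF2BP3. The last step called 0 of 7, beside 27.6% of all genes in either direction. That last count depends on the scale near 0. With a pseudocount of 0.5 in place of 1 it was 3, namely ZAR1L, YBX2 and CPEB1, beside 32.6% of all genes. With one of 0.1 it was 4, beside 40.1%. Neighbouring steps share a library, so their values are not independent of each other.

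**Figure D2:**
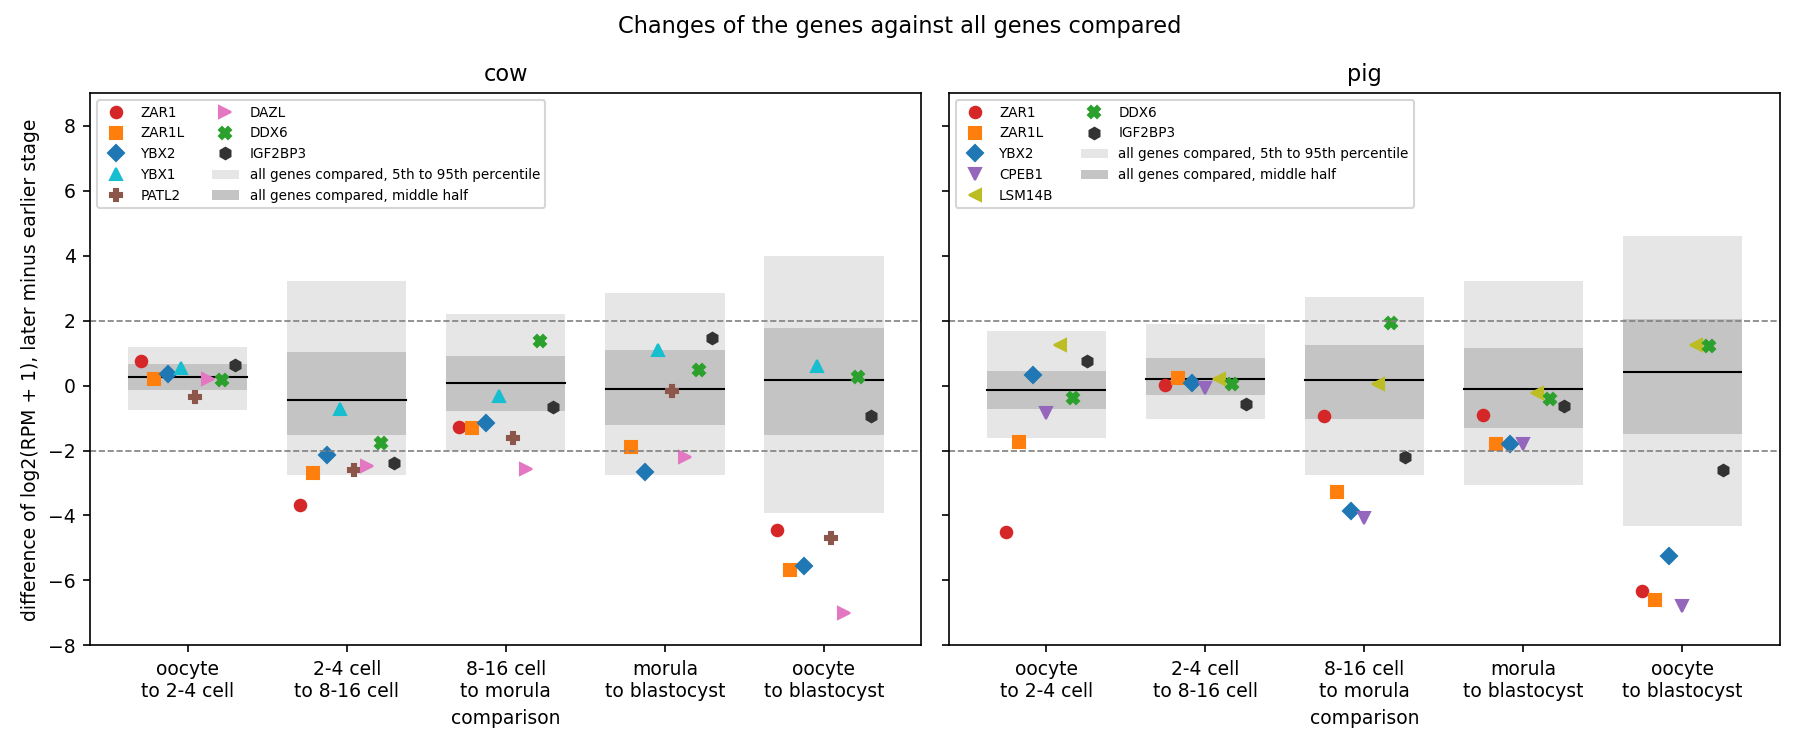
Difference of log2(RPM + 1), later minus earlier stage, for each gene (symbols) in cow (left) and pig (right); grey bars span the 5th to 95th percentile and the middle 50% of all genes compared, black lines are their medians, and dashed lines mark the threshold of 2. Over the 4 single steps the median of the listed genes is lowest into the 8-16 cell stage in cow (-2.43) and into the morula in pig (-2.20), but cow YBX2 has its largest fall into the blastocyst (-2.65), cow DAZL into the morula (-2.56) and pig ZAR1 at the first step (-4.52), and pig DDX6 lies above 0 into the morula (1.94).

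ZAR1 and ZAR1L are zygote arrest proteins, related RNA-binding proteins with a zinc finger end that assemble stored mRNA in the oocyte; mouse embryos from mothers without ZAR1 stop dividing very early. The cow ZAR1 gene lies on chromosome 6, 68820780 to 68824912, and the pig gene on chromosome 8, 38386643 to 38391611. Cow positions are in UMD3.1 and pig positions in Sscrofa11.1, the builds named in the submitters' processing notes. Over the cow stages, in order from the oocyte, ZAR1 stood at 22.1 (18.3 to 26.7), 38.1, 2.02 and 0.256 RPM (1 read), with 0 reads in the blastocyst. It was high in the oocyte and 2-4 cell libraries and low in the later ones, and the intervals of neighbours from the 8-16 cell stage on overlapped. The 8-16 cell interval (1.13 to 3.63) still lay above that of the blastocyst (0 to 0.271), and the fall into the morula was 7.90-fold (1.15 to 340). The step between 2-4 and 8-16 cells was an 18.8-fold fall (10.2 to 38.4), and from oocyte to blastocyst it fell at least 105-fold.

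Pig ZAR1 stood at 99.5 (89.4 to 111), 3.38 (2.02 to 5.68), 3.47 and 1.33 RPM (4 reads) in the same order, again with 0 reads in the blastocyst. It was high in the oocyte alone, and the intervals of neighbouring levels in the 4 later libraries overlapped. The 8-16 cell interval (1.94 to 6.22) still lay above that of the blastocyst (0 to 1.03). The first step was a 29.4-fold fall (17.3 to 54.4), a difference of -4.52, and only 1 of the 11362 genes compared fell further there. At the same step cow ZAR1 differed by 0.76 in the other direction. The difference between the species was not tested.

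ZAR1L lies on cow chromosome 12, 28690891 to 28700359, and on pig chromosome 11, 8765256 to 8805881. Its cow levels were 133, 154, 23.0, 8.72 and 1.62 RPM from the oocyte to the blastocyst. The first pair had overlapping intervals, although the 2-4 cell level was 1.16-fold higher with a ratio interval of 1.04 to 1.29. Each level after this pair was lower than the one before. Between 2-4 and 8-16 cells it fell 6.68-fold (5.51 to 8.15), and over the whole course 81.8-fold (54.04 to 130). Pig levels were 120, 35.3, 41.4 and 3.33 RPM, with 0 reads in the blastocyst. Here the 2-4 cell and 8-16 cell levels did not differ beyond their intervals and lay between a higher oocyte and a lower morula. The first pig step of ZAR1L was 3.39-fold (2.80 to 4.13), a difference of -1.73 that missed the threshold, and the step into the morula was a 12.4-fold fall (6.55 to 26.5). In the pig 2-4 cell library ZAR1L thus kept 29.5% of its oocyte level (24.2 to 35.7) and ZAR1 3.40% (1.84 to 5.79). How reads that match several genes were placed is not given in the sources used here, so reads of related genes may be shared.

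YBX2 and YBX1 are cold shock domain (Y-box) proteins that coat mRNA; YBX2 is the germ cell form, and YBX1 is expressed widely. YBX2 lies on cow chromosome 19, 27622773 to 27628780, and on pig chromosome 12, 52635098 to 52641651. Cow levels were 66.5, 85.8, 19.0, 7.95 and 0.423 RPM (6 reads), highest at the 2-4 cell stage and lower in each library after it. The fall between 2-4 and 8-16 cells, 4.53-fold (3.63 to 5.68), was close to the threshold: its difference of -2.12 lay between -2.17 and -1.79 over 8 other settings and missed the threshold in 3 of them. From oocyte to blastocyst cow YBX2 fell 157-fold (71.5 to 432).

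Pig YBX2 levels were 45.9, 57.7 and 61.6 RPM in the first 3 libraries, then 3.33 RPM in the morula and 0 reads in the blastocyst. Neighbours among the first 3 had overlapping intervals, although the first step was 1.26-fold higher with a ratio interval of 1.02 to 1.55. YBX2 had therefore not dropped in pig at the stage where the cow level had. The step into the pig morula was an 18.5-fold fall (9.84 to 39.2). At the 8-16 cell stage the level was 28.5% of the oocyte level in cow (22.6 to 35.7) and 134% in pig (108 to 167).

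YBX1, on cow chromosome 3, 104112934 to 104133708, did not follow its germ cell relative. Its levels were 468, 688, 417, 336 and 719 RPM, lowest in the morula and highest in the blastocyst and 2-4 cell libraries, whose intervals overlapped. The highest of these levels was 2.14 times the lowest. From oocyte to blastocyst it differed by 0.62, where YBX2 differed by -5.57. YBX3, a further Y-box gene outside the list, fell in cow, where it had 13.6 RPM in the oocyte and 1.48 RPM in the blastocyst, a difference of -2.56. Pig YBX3 had 65.7 and 93.0 RPM there, a difference of 0.49.

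CPEB1 and DAZL bind sequence elements in the tail region of mRNA: CPEB1 first represses its targets and then promotes their polyadenylation during meiosis, and DAZL promotes translation in germ cells. Pig CPEB1 (chromosome 7, 52303665 to 52383732) stood at 137, 76.1, 72.01 and 3.33 RPM from the oocyte to the morula, with 0 reads in the blastocyst. The 2-4 cell and 8-16 cell levels did not differ beyond their intervals, and both were below the oocyte. The fall into the morula was 21.6-fold (11.5 to 45.7), and over the whole course CPEB1 fell at least 171-fold. Its relatives did not share that course: from oocyte to blastocyst CPEB2 differed by -1.20, CPEB3 by 1.86 and CPEB4 by -0.59 in pig, none past the threshold. In cow CPEB4 fell, with 511 RPM in the oocyte and 45.2 RPM in the blastocyst, while CPEB3 had 106 and 88.9 RPM.

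DAZL in cow (chromosome 1, 155383458 to 155406442) stood at 137, 158, 27.6 and 3.85 RPM from the oocyte to the morula, with 0 reads in the blastocyst. The oocyte and 2-4 cell levels had overlapping intervals, although the 2-4 cell level was 1.15-fold higher with a ratio interval of 1.04 to 1.28. Every step after them was called lower. These falls were 5.72-fold (4.79 to 6.87), 7.18-fold (4.22 to 13.1) and at least 18.2-fold. Over the whole course DAZL fell at least 647-fold, the largest log2 difference of the 8 cow genes (-7.02). BOLL, its germ cell relative, also fell in cow, with 45.4 RPM in the oocyte and 7.47 RPM in the blastocyst. Pig BOLL stood at 0.296, 1.69, 5.05, 0.999 and 0 RPM from the oocyte to the blastocyst, highest at the 8-16 cell stage. It was too low in pig to be compared between oocyte and blastocyst.

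PATL2, LSM14B and DDX6 belong to the repression side of storage: DDX6 is an RNA helicase of cytoplasmic repression granules, LSM14 proteins bind it, and PATL2 is the oocyte form of a decapping factor. Cow PATL2 (chromosome 10, 104090288 to 104098734) stood at 76.1, 59.3, 9.02, 2.31 and 1.97 RPM. It was highest in the oocyte, and its morula and blastocyst levels had overlapping intervals. Between 2-4 and 8-16 cells it fell 6.57-fold (4.83 to 9.10), and over the course 38.5-fold (26.2 to 58.8). PATL1, the widely expressed form, had 36.1, 62.0, 169, 158 and 112 RPM in cow, a difference of 1.61 from oocyte to blastocyst that was not called. In pig PATL1 stayed between 106 and 155 RPM.

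Pig LSM14B (chromosome 17, 61552551 to 61564814) stood at 9.77, 24.6, 28.4, 29.3 and 24.7 RPM. The oocyte level was the lowest, and neighbouring levels of the other 4 libraries had overlapping intervals. It was 2.52-fold higher at the 2-4 cell stage than in the oocyte (1.69 to 3.86), a difference of 1.25 that was not called. Its span overlaps that of PSMA7 on the other strand, which had 25.8 to 51.7 RPM, and strand handling in counting is not given in the sources used here. LSM14A stood at 65.4, 91.6, 137, 254 and 71.9 RPM in the same libraries, and at 113, 150, 390, 316 and 229 RPM in cow.

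DDX6 lies on cow chromosome 15, 29887449 to 29918570, and on pig chromosome 9, 46025445 to 46063836. Cow levels were 118, 134, 38.7, 101 and 143 RPM. The 8-16 cell library was the low one, at 32.6% of the oocyte level (27.7 to 38.3), and neighbours in the order of the other 4 levels overlapped. The 2-4 cell level was 3.47-fold above it (2.96 to 4.08) and the morula level 2.62-fold (2.21 to 3.11), neither difference past the threshold. The other 4 levels were not all alike: the blastocyst level was 1.41-fold above the morula level (1.27 to 1.58). The 2-4 cell level was 1.13-fold above the oocyte level (1.01 to 1.27). Pig levels were 30.5, 23.2, 24.3, 95.9 and 72.1 RPM, low in the first 3 libraries, which did not differ beyond their intervals, and high in the last pair. The step into the pig morula was 3.94-fold higher (3.06 to 5.14), a difference of 1.94 just short of the threshold.

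IGF2BP3 is an mRNA-binding protein that protects transcripts and is prominent in oocytes and fetal tissue. The gene lies on cow chromosome 4, 32077891 to 32222388, and on pig chromosome 9, 92104787 to 92272014, where its span overlaps MALSU1 (34.6 to 474 RPM) on the other strand. Cow levels were 446, 701, 132, 84.1 and 235 RPM. The lowest level was in the morula, and the blastocyst level was 2.79-fold above it (2.49 to 3.14), a difference of 1.47. With quantile normalisation that difference was 2.01, which passes the threshold. Pig levels were 600, 1010, 689, 150 and 97.3 RPM, and intervals of neighbours in that order did not overlap. The fall into the pig morula was 4.60-fold (4.16 to 5.11). In both species the 2-4 cell library held the highest level, 1.57-fold above the oocyte in cow (1.49 to 1.66) and 1.68-fold in pig (1.60 to 1.78). From oocyte to blastocyst the difference was -2.61 in pig and -0.92 in cow, where it was not called.

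The other genes of that family differed from it. IGF2BP1 in cow had 2 reads in each of the oocyte and 2-4 cell libraries, then 11.97, 95.1 and 99.1 RPM. From oocyte to blastocyst the ratio was 244 (67.5 to 2018). IGF2BP2 in pig rose 21.05-fold (14.1 to 32.8), with 7.40 RPM in the oocyte and 156 RPM in the blastocyst, against 31.03 and 65.2 RPM in cow. The related genes given here and above (YBX3, BOLL, PATL1, LSM14A and those of the CPEB and IGF2BP families) were named after their values were seen.

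**Figure D3:**
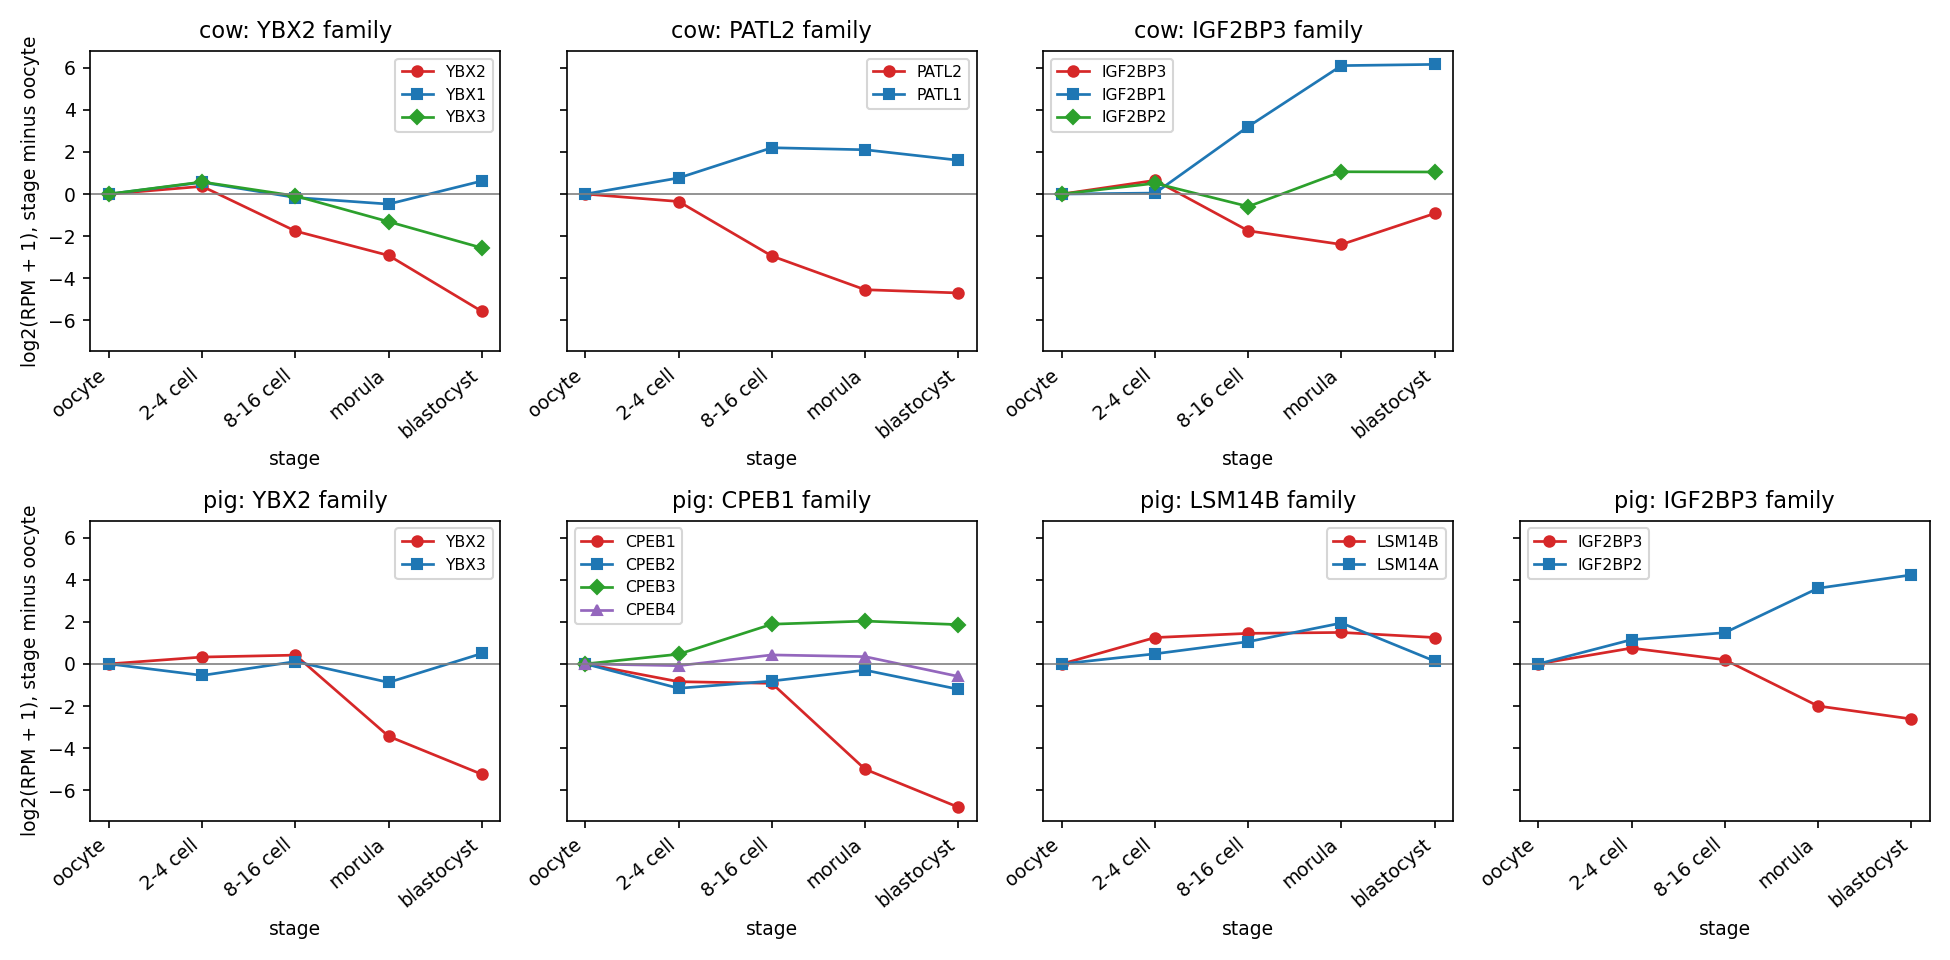
Log2(RPM + 1) at each stage minus that of the oocyte library of the species, for the listed gene (red) and its relatives, 1 library per stage, with 0 reads drawn at 0.9 of a read. In cow YBX2, PATL2 and IGF2BP3 end below YBX1, PATL1 and IGF2BP1, and in pig YBX2, CPEB1 and IGF2BP3 end below every plotted relative, while LSM14B and LSM14A both end at or above their oocyte level.

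For the 5 genes measured in both species, levels were set across species by rank only, since both tables were scaled separately. These ranks order genes of different length by RPM and were not corrected for length. Annotated spans also differ between the species, as for ZAR1L with 9469 bases in cow and 40626 in pig. In the oocyte libraries IGF2BP3 ranked above 98.9% of gene rows in cow and 99.1% in pig, ZAR1L above 94.4% and 92.6%, and YBX2 above 89.7% and 84.8%. DDX6 ranked above 93.8% in cow and 81.0% in pig, and ZAR1 above 80.2% and 91.2%. At the 8-16 cell stage ZAR1L still ranked above 80.9% of cow rows and 84.5% of pig rows, and YBX2 above 78.9% and 88.1%. In the blastocyst libraries IGF2BP3 ranked above 98.5% and 91.4%, and DDX6 above 96.5% and 88.7%.

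The courses of a gene in cow and pig were also compared as profiles, centred on their mean within the species. The root mean square difference between both profiles was 1.76 log2 units for ZAR1, 1.16 for IGF2BP3, 0.99 for ZAR1L, 0.93 for YBX2 and 0.87 for DDX6. The median over 6279 symbols with at least 10 RPM in a library of each species was 1.12. ZAR1 was therefore the gene of the 5 whose course differed most between the species, with 83.0% of symbols below it. Among these genes the most alike pair over the 10 libraries was ZAR1L and YBX2 (0.57), whereas ZAR1 and ZAR1L differed by 0.64 in cow and by 1.38 in pig.

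**Figure D4:**
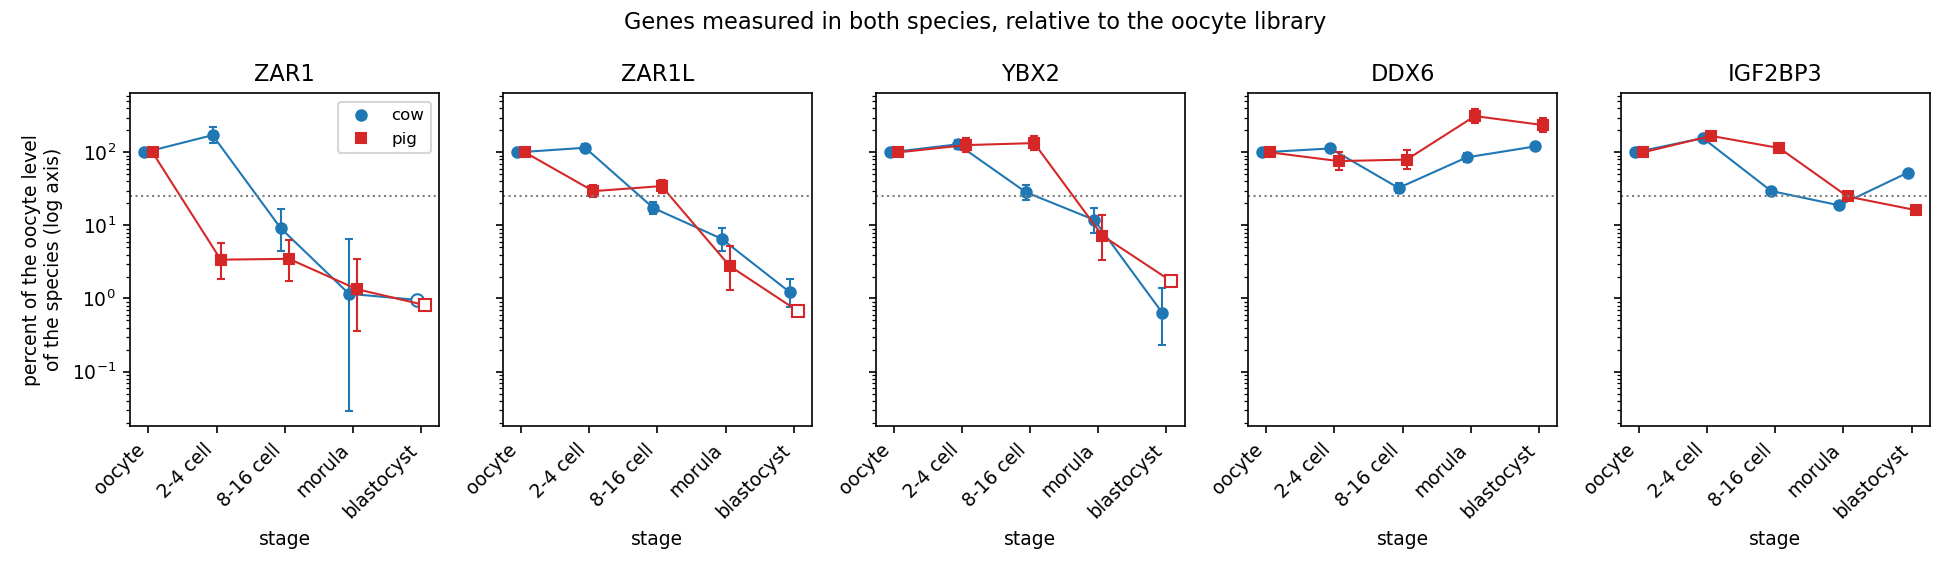
Level as percent of the oocyte library of the same species (log axis) for the 5 genes measured in both; bars are exact 95% counting intervals of the ratio, open symbols mark 0 reads, drawn at 3 reads, and the dotted line marks 25%. ZAR1 in pig is at 3.40% by the 2-4 cell stage against 172% in cow, and YBX2 and IGF2BP3 in pig are above 100% at the 8-16 cell stage, where cow levels are 28.5% and 29.6%.

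Genes with the most similar course were taken as the 3 symbols with the smallest root mean square difference over the 10 libraries, among the same 6279 symbols. For ZAR1 these were ID3 (0.71), COCH (0.75) and NRIP3 (0.76), beside a median of 2.35 over all symbols. ID3 shared the early drop in pig, with 125 RPM in the oocyte and 7.01 RPM at the 2-4 cell stage, and 43.8 and 61.3 RPM in cow. With a pseudocount of 0.5, only COCH of these 3 stayed among the nearest, beside OOEP and ZP3. For ZAR1L the nearest were CCDC88C (0.40), GPC4 (0.41) and ILDR2 (0.42), with a median of 2.53. USP2 (0.33), PIWIL3 (0.38) and MNS1 (0.43) were nearest to YBX2, with a median of 2.46. PIWIL3 encodes a PIWI protein of the female germ line. For DDX6 they were RBMS1 (0.20), BICRAL (0.22) and PNRC2 (0.25), with a median of 1.26, and for IGF2BP3 they were BCORL1 (0.26), KCMF1 (0.29) and KPNA2 (0.30), with a median of 1.61.

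A list of 40 other genes of mRNA storage and translation control gives the surroundings: further Y-box, CPEB, Musashi and poly(A)-binding proteins, cap-binding factors, decapping factors and granule proteins. From oocyte to blastocyst 13 of 37 genes compared fell and 5 rose in cow, beside 18.4% lower and 21.8% higher over all genes. In pig 4 of 28 fell and 5 rose, beside 19.2% and 26%. The medians were -0.53 and 0.26, against 0.18 and 0.43 over all genes. Of the list, 6 were called in both species, and each moved the same way in both. In either direction 40.2% of all genes were called in cow and 45.2% in pig. The share of all genes called in both species was not computed, so the count of 6 and its shared direction have no background. Of these 6 genes, 5 are described here.

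CAPRIN2, an RNA-binding protein of the Caprin family, was at 428, 369, 26.3, 14.4 and 3.95 RPM in cow and at 481, 177, 111, 30.6 and 2.14 RPM in pig. Its largest log2 step was the one into the 8-16 cell stage in cow and the one into the blastocyst in pig. EIF4ENIF1, which binds the cap-binding protein and represses translation together with DDX6 and PATL proteins, was at 266, 395, 94.3, 54.4 and 48.6 RPM in cow and at 513, 433, 444, 60.9 and 60.9 RPM in pig. It was called lower into the 8-16 cell stage in cow and into the morula in pig. Smaller differences below the threshold stood at other steps, such as 1.73-fold (1.47 to 2.04) into the cow morula and 1.19-fold (1.11 to 1.27) at the first pig step, both to a lower level. ELAVL2, an RNA-binding protein of oocytes and neurons, fell by 4.06 in cow and by 3.88 in pig on the log2 scale. PABPC1L, the poly(A)-binding protein of oocytes, fell as well, with 4.67 RPM in the cow oocyte and 0 reads in the cow blastocyst, and with 13.6 RPM and 1 read in pig.

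G3BP1, a stress granule protein, rose in both species. It was at 27.0, 43.5, 192, 416 and 152 RPM in cow and at 11.8, 19.6, 18.0, 139 and 90.4 RPM in pig, highest in the morula of both.

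**Figure D5:**
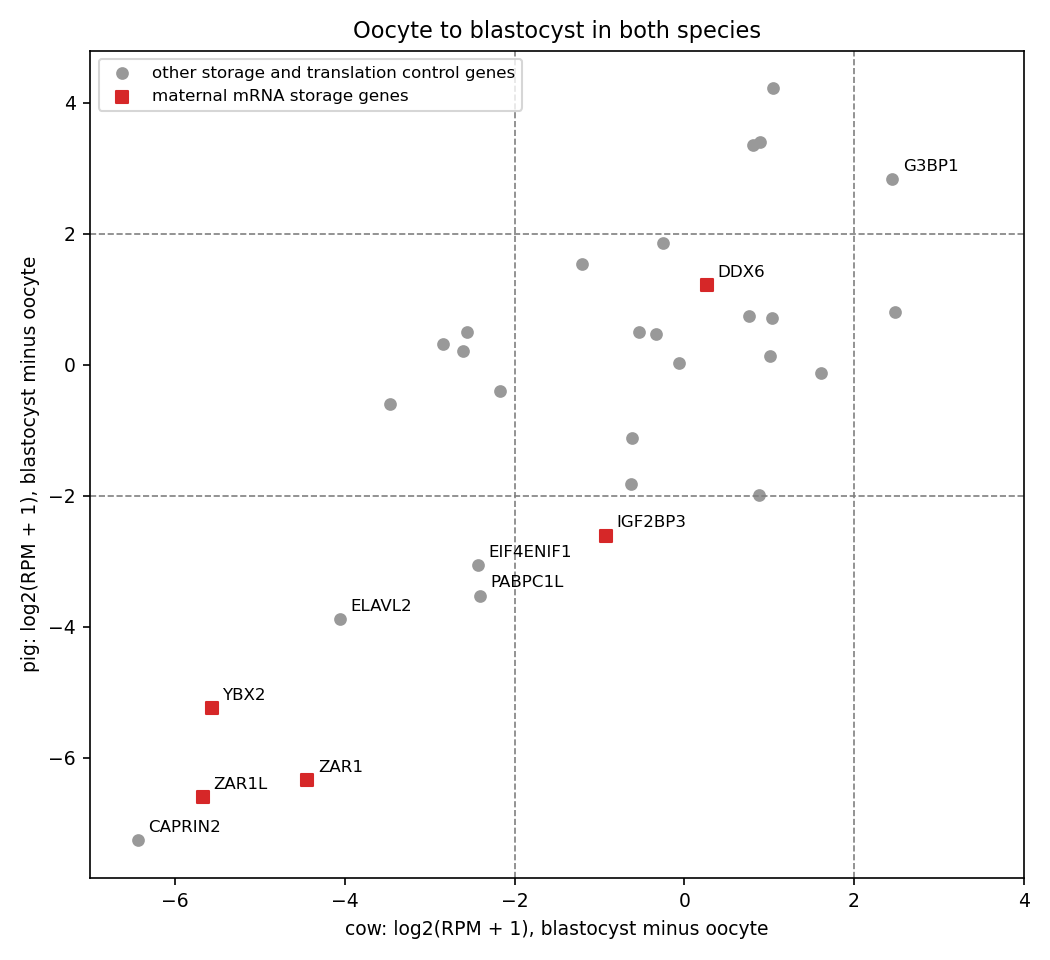
Difference of log2(RPM + 1), blastocyst minus oocyte, in cow (horizontal) and pig (vertical) for the 5 storage genes measured in both (red squares) and 26 genes of the wider list (grey circles), with dashed lines at the threshold of 2. ZAR1, ZAR1L and YBX2 lie at the lower left with CAPRIN2 and ELAVL2, G3BP1 at the upper right, and DDX6 inside the thresholds.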

How the data were processed

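The deposited tables hold log2 values that the authors computed for each gene and stage. The submitters' processing notes list Trim Galore 0.6.4, HISAT2 2.1.0 and the builds UMD3.1 and Sscrofa11.1; the counting method, annotation, strand handling and removal of duplicates are not given in the sources used here. Per the labels' protocols, a kit for low RNA input was used and libraries had 8 cycles of PCR, so reads are not independent molecules. In each column at least 99.9% of values above the lowest are whole multiples of the second lowest (within 0.01 of a read), and the lowest is 0.9 of it, so values are log2 RPM with 0 reads written as 0.9. Reads and totals were recovered from this. Mitochondrial genes took 2.74% to 30.2% of reads, which lowers all other RPM values. Genes with at least 1 RPM in one of both libraries were compared. Wilson and Clopper-Pearson intervals came from scipy 1.17.1 in Python 3.11.15; the code was tested on simulated data. The genes and lists were chosen with earlier results of these data known. Named were all listed genes, at most 8 list genes called in both species and the 3 nearest profiles per gene. The values of 1 gene of the wider list that met this rule are not reported here, though it is counted in the list's totals.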

Additional observations from a re-analysis of the deposited data

How the results depend on the processing

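Each stage had 1 library, so counting error is the only error that could be estimated. No paired analysis was possible because the columns carry no replicate numbers. 12 alternatives were run, of which taking 0 reads as 0 was chosen after seeing the data, as were all alternatives for the wider list. The counts of listed genes called from oocyte to blastocyst, 5 in cow and 5 in pig, were the same under all 12, except in pig with 7 at a threshold of 1 and 4 at a threshold of 3, and no called value of a listed gene turned its sign. Counts at single steps moved more, and those that moved by over 1.5 times are given first. For these steps, brackets give the share of all genes called at the same setting in either direction. For the pig morula to blastocyst step, 0 in the report, the count was 3 with a pseudocount of 0.5 (32.6%) and 4 with 0.1 (40.1%). It was also 3 when scaled to gene rows that are not mitochondrial (29.1%), with 0 reads as 0 (29.0%) and at a threshold of 1 (59.8%). The cow 8-16 cell to morula count of 1 became 2 with a pseudocount of 0.1 (23.7%), 6 at a threshold of 1 (42.0%) and 0 at a threshold of 3 (2.76%). For the cow morula to blastocyst step, 2 in the report, it was 4 with quantile normalisation (23.6%) and 1 with a minimum of 5 RPM (27.9%). There it was 5 at a threshold of 1 (56.9%) and 0 at a threshold of 3 (8.16%). The cow 2-4 cell to 8-16 cell count of 6 was 1 at a threshold of 3 (9.05%), and the first pig count of 1 was 3 at a threshold of 1 (27.3%). On the wider list the 18 cow genes became 8 at a threshold of 3, and the 9 pig genes 15 at a threshold of 1. Smaller moves at the cow steps came from YBX2, without which the count of 6 was 5 with median scaling, quantile normalisation and scaling to gene rows that are not mitochondrial, and from ZAR1L, which passed the threshold between cow morula and blastocyst in 4 of 8 settings (-2.36 to -1.85). Fewer or more genes pass a stricter or looser threshold by construction; the other causes were not tested. Of the 15 genes named for a similar course, 14 were kept with a filter of 5 RPM and 12 with a pseudocount of 0.5. Median scaling shifted the median of all genes for the first cow step from 0.27 to -0.01. It also moved the share of called genes that were higher from 46.5% to 60.6% for the cow step between 2-4 and 8-16 cells, and from 60.0% to 77.8% for the first pig step.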
